A study of Rattus norvegicus with 10 samples.

Results

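The axon guidance ligands and receptors were examined in Wistar Han rats with and without drinking water, in punches of the supraoptic nucleus (SON). The SON is a hypothalamic nucleus of magnocellular neurones that release vasopressin and oxytocin from the posterior pituitary. Members were all genes whose symbol in the authors' deposited table marks a semaphorin of classes 3 to 7, a plexin, a neuropilin, an ephrin, an Eph receptor, a Slit, a Robo, a netrin, an Unc5 receptor or Dcc. The rule matched 70 of 32402 listed genes. Of these, 68 are guidance ligands (35) or receptors (33). The other 2, Unc50 and Unc5cl, match only by the start of their symbols, since neither encodes a netrin receptor.

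There were 5 euhydrated control libraries, from rats with free access to water, and 5 dehydrated libraries, from rats that had no water for 72 h. Cages, not single rats, were allotted at random to the groups, and neither age nor sex is given in the sources used here. Both SONs were punched from frozen coronal slices, and polyadenylated RNA was sequenced with a stranded kit. Nothing states that each library came from 1 rat, so the p-values rest on the spread between libraries, which may be partly technical. The cage of each library is not given either. The tests therefore take all libraries as independent and could not allow for libraries that share a cage. A punch also takes glia, vessels and other neurones around the magnocellular cells, so fewer cells of a type and less RNA per cell cannot be told apart.

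Guidance ligands steer growing axons by attraction or repulsion, and in adult brain the same proteins are made by neurones, glia and vessels, where they bear on synapses, spines, myelin and capillaries. Class 3 semaphorins are secreted and act through neuropilins, which bind the ligand, with plexins, which carry the signal into the cell. Most membrane-bound semaphorins bind plexins directly. Ephrins sit on cell surfaces, the A type by a lipid anchor and the B type by a transmembrane segment, and signal through the Eph receptor tyrosine kinases of neighbouring cells. Slits repel axons through Robo receptors. Netrins act through Dcc, which can mediate attraction, and through Unc5 receptors, which mediate repulsion. The SON is known for reversible changes of shape during dehydration, when astrocyte processes withdraw from between magnocellular neurones.

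The libraries held 24268398 to 28491926 counts. Members together took 0.311% to 0.322% of the counts in the euhydrated and 0.296% to 0.305% in dehydrated libraries, ranges that did not overlap. No test was made of this sum, which is a share of raw library totals. On library totals the median log2 fold change (dehydrated over euhydrated) was -0.033 over all genes tested and -0.087 over members. With the scaling used for the tests below these medians were -0.0058 and -0.06. All 8 markers of magnocellular neurones were detected in every library, with a summed level of 8443 to 11817 CPM (read counts scaled to library size) in the euhydrated and 12543 to 16629.7 CPM in dehydrated libraries. These ranges did not overlap. By edgeR (adjusted p under 0.05) 3 of the 8 markers rose and 0 fell, 37.5% called against 12.7% of all genes tested. This marker list was not used as a covariate. Of the 70 members 67 passed the filter on low counts and were tested. Epha1, Robo4 and Unc5cl did not; Robo4, an endothelial Robo, had at most 1 read in a library, and Epha1 had 4 to 15.

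After 72 h without water 12 members fell and 3 rose, while 52 did not pass the threshold (edgeR adjusted p under 0.05 over all genes tested). Those that fell were the semaphorins Sema4d, Sema4g and Sema6c, the ephrins Efna2, Efna4 and Efnb3, the plexins Plxna1, Plxna4 and Plxnc1, and the receptors Nrp2, Epha7 and Unc5d. Those that rose were Nrp1, Slit2 and Unc5c. The changes were small, with a median of 1.17-fold among members that fell (1.08- to 1.82-fold) and 1.13- to 1.18-fold among those that rose. Of all genes tested 12.7% passed, 7.79% higher and 4.90% lower. Of the members 22.4% passed, 4.48% higher and 17.9% lower. The median log2 fold change (dehydrated over euhydrated) was -0.06 over the 67 members and -0.0058 over all genes. Below 0 lay 45 of the 67 members and 7924 of the 15311 genes tested. Scaled to library totals alone, 1 member passed as higher and 15 as lower, against 5.90% and 7.66% of all genes. Leaving out 1 library at a time gave 7 to 11 members lower, the 7 without dehydrated 2. It gave 1 to 3 higher, with 1 without euhydrated 1, 4 or 5 or dehydrated 1 or 3. In these fits 3.35% to 4.48% of all genes passed as lower and 6.21% to 7.22% as higher. With all libraries in the fit, 26 of the 67 members had an unadjusted p under 0.05 by edgeR. This is a larger share than the 26.4% of all genes (4046 of 15311).

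The groups did not overlap in 10 of the 67 members (14.9%), against 10.9% of all genes tested. Dehydrated libraries lay below all euhydrated libraries in 8 members, where the share over all genes was 3.97%. They lay above in Unc5c and Sema4b, where the share over all genes was 6.90%. The spread between libraries of a group was like that of other genes: the median coefficient of variation of the CPM was 6.83% in the euhydrated and 6.51% in dehydrated libraries for members, and 6.92% and 7.22% for all genes tested.

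**Figure D1:**
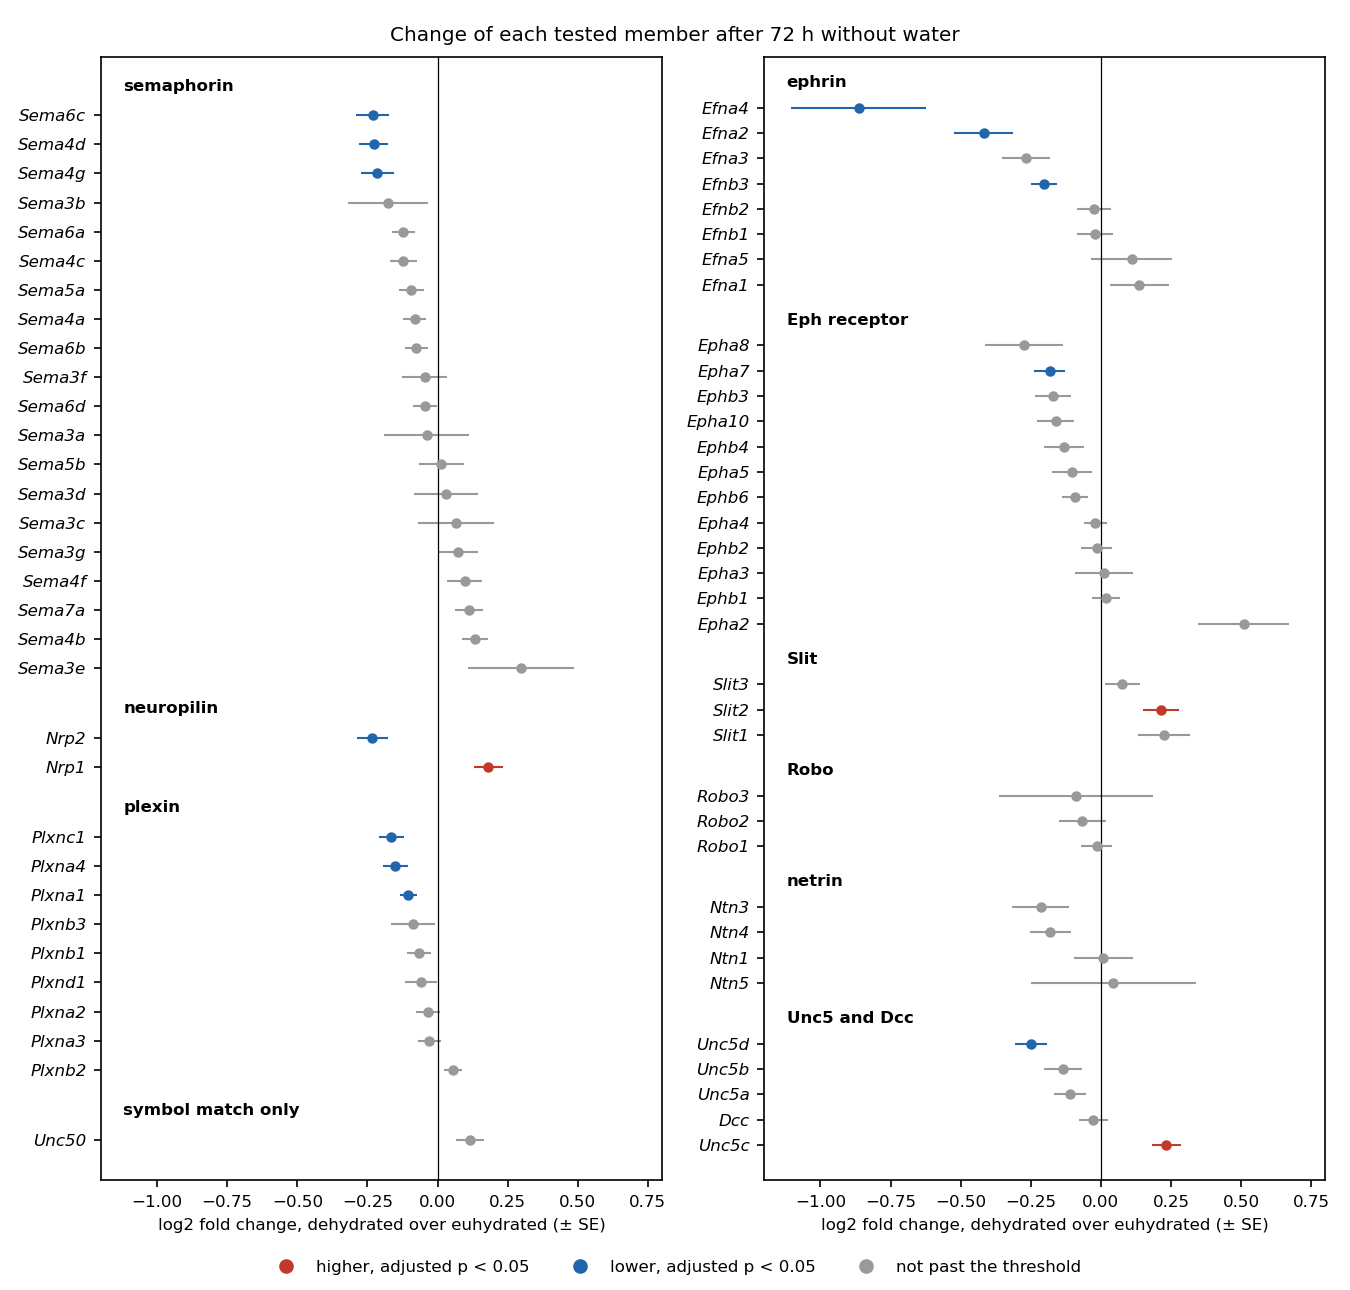
Log2 fold change (dehydrated over euhydrated, x axis) of each of the 67 tested members, with bars of 1 SE, grouped by family. Blue points are the 12 members that fell, red points the 3 that rose and grey points the 52 that did not pass; Efna4 lies farthest left, at -0.86.

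Among ligands, 6 of 35 fell and 1 rose, and among receptors 6 of 31 tested fell and 2 rose. The shares of all genes tested were 4.90% lower and 7.79% higher. Of the 20 semaphorins 3 fell and 17 did not pass, with log2 fold changes of -0.23 to 0.30. None of the 7 class 3 semaphorins, the secreted ligands of neuropilins, passed by edgeR or by DESeq2 in the authors' deposited table, and none had an unadjusted p under 0.05 by edgeR (log2 fold changes of -0.18 to 0.30). Those that fell were of the transmembrane classes 4 and 6.

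Sema4d, a transmembrane semaphorin that binds B-type plexins and is made by oligodendrocytes among other cells, fell 1.17-fold, with means of 81.5 ± 6.77 CPM in the euhydrated and 69.5 ± 2.47 CPM in dehydrated libraries (± SD, n = 5 each; log2 fold change -0.23 ± 0.05, SE; adjusted p = 0.00743 by edgeR). Its euhydrated levels were 80.8, 79.7, 73.8, 80.5 and 92.5 CPM and its dehydrated levels 65.4, 71.3, 71.3, 69.4 and 70.4 CPM. Every dehydrated library lay below every euhydrated one, and euhydrated 5 was the highest of all. Sema6c, a transmembrane ligand of A-type plexins, fell 1.17-fold, with means of 27.1 ± 2.01 CPM in the euhydrated and 23.1 ± 1.18 CPM in dehydrated libraries (± SD, n = 5 each; log2 fold change -0.23 ± 0.06, SE; adjusted p = 0.0148 by edgeR). It read 28.4, 27.7, 29.5, 25.1 and 24.96 CPM in the euhydrated and 23.2, 24.3, 22.7, 21.3 and 23.96 CPM in dehydrated libraries, again with no overlap between the groups.

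Sema4g, another transmembrane member of class 4, fell 1.16-fold, with means of 36.6 ± 0.7901 CPM in the euhydrated and 31.5 ± 3.18 CPM in dehydrated libraries (± SD, n = 5 each; log2 fold change -0.22 ± 0.06, SE; adjusted p = 0.0244 by edgeR). Its levels were 36.4, 36.4, 35.5, 36.98 and 37.6 CPM in the euhydrated and 36.4, 28.5, 31.2, 28.96 and 32.4 CPM in dehydrated libraries. Dehydrated 1 lay among the euhydrated values and the other 4 dehydrated libraries lay below them. Sema4g no longer passed when euhydrated 4 or 5 or dehydrated 2, 3 or 4 was left out (adjusted p = 0.0531 to 0.0609). Without dehydrated 1 the change was -0.27 on the log2 scale (adjusted p = 0.00215). Sema4b, a further class 4 semaphorin, went the other way without passing: 18.9, 19.6, 20.4, 19.6 and 19.1 CPM in euhydrated against 21.9, 21.3, 20.99, 21.8 and 21.1 CPM in dehydrated libraries, which did not overlap, at a change of 0.13 ± 0.05 on the log2 scale (SE; adjusted p = 0.0686 by edgeR).

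The 2 neuropilins moved in opposite directions. Nrp1, a receptor for Sema3a and a co-receptor for vascular endothelial growth factor, rose 1.13-fold, with means of 38.1 ± 2.54 CPM in the euhydrated and 43.2 ± 2.105 CPM in dehydrated libraries (± SD, n = 5 each; log2 fold change 0.18 ± 0.05, SE; adjusted p = 0.0282 by edgeR). Its levels were 36.7, 42.01, 39.4, 36.9 and 35.8 CPM in the euhydrated and 46.02, 41.8, 44.2, 43.5 and 40.6 CPM in dehydrated libraries. Only euhydrated 2 reached into the dehydrated range. Nrp2, which binds Sema3f and other class 3 semaphorins, fell 1.18-fold, with means of 79.1 ± 4.67 CPM in the euhydrated and 67.3 ± 5.49 CPM in dehydrated libraries (± SD, n = 5 each; log2 fold change -0.23 ± 0.06, SE; adjusted p = 0.0131 by edgeR). It stood at 85.8, 74.7, 79.3, 81.1 and 74.7 CPM in the euhydrated and 71.03, 67.8, 57.99, 71.7 and 68.2 CPM in dehydrated libraries, with no overlap and with dehydrated 3 the lowest. Nrp1 no longer passed when euhydrated 1, 4 or 5 or dehydrated 1 or 3 was left out (adjusted p = 0.0632 to 0.073). It was also lost with library totals (adjusted p = 0.0567).

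The count of Nrp1 over that of Nrp2 within a library does not depend on scaling between libraries. This ratio was 0.428, 0.562, 0.496, 0.455 and 0.479 in euhydrated libraries 1 to 5 and 0.648, 0.617, 0.762, 0.607 and 0.596 in dehydrated libraries 1 to 5. The mean was 0.484 ± 0.0509 and 0.646 ± 0.0679 (SD, n = 5), with no overlap. The pair was chosen for its opposite changes, so no test was made, and the ratio says nothing of which transcript is more abundant because lengths were not taken into account.

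The stretches before the starts of both neuropilin genes are shown because these paralogues moved in opposite directions; they are the 250 bases upstream of each RefSeq start in the GRCr8 assembly, on the plus strand, at chr19:73256307-73256556 for Nrp1 and chr9:71617004-71617253 for Nrp2. Both are wholly in lower case because neither holds, on either strand, any of the 4 motifs that capitals would mark: the half-site of the cAMP response element (TGACG), the AP-1 site (TGANTCA), the E-box (CACGTG) and the GC box (GGGCGG).
Nrp1: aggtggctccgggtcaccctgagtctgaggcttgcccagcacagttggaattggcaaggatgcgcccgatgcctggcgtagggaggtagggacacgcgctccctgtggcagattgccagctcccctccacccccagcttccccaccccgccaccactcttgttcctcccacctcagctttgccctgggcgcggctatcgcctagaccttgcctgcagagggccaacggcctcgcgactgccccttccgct
Nrp2: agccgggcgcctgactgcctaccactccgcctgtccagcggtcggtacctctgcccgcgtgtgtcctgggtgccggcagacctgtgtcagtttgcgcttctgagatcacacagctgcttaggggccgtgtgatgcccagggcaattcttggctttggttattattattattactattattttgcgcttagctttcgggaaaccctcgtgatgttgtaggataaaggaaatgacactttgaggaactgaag
RefSeq promoters gave 56 windows for the 70 members, with none for some members and with Robo1 counted at each of its starts. Over all 33469 windows of this length, 18.2% held the half-site, 6.34% the AP-1 site, 5.59% the E-box and 30.5% the GC box. Guanine and cytosine made up 66.4% of the Nrp1 window and 52.8% of the Nrp2 window.

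Plexins, the signalling partners of neuropilins and direct receptors of most other semaphorins, lay below 0 in 8 of 9 members, and 3 of the 9 fell. Below 0 lay 7924 of the 15311 genes tested, and 4.90% fell. Plxnc1, the receptor of Sema7a, fell 1.12-fold, with means of 125 ± 5.33 CPM in the euhydrated and 111 ± 7.11 CPM in dehydrated libraries (± SD, n = 5 each; log2 fold change -0.16 ± 0.04, SE; adjusted p = 0.0203 by edgeR). Its levels were 124, 123, 123, 119 and 134 CPM in the euhydrated and 104, 105, 114, 111 and 122 CPM in dehydrated libraries, overlapping through dehydrated 5. Plxnc1 no longer passed when euhydrated 5 or dehydrated 1 or 2 was left out (adjusted p = 0.053 to 0.0536). Its ligand Sema7a, chosen here after its value was seen, had a log2 fold change of 0.11 ± 0.05 (SE; adjusted p = 0.171 by edgeR). It passed with oligodendrocyte markers as a covariate (log2 fold change 0.16, adjusted p = 0.0415).

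Both A-type plexins that fell share class 3 and class 6 semaphorins as ligands. Plxna1 fell 1.08-fold, with means of 119 ± 2.37 CPM in the euhydrated and 111 ± 3.53 CPM in dehydrated libraries (± SD, n = 5 each; log2 fold change -0.10 ± 0.03, SE; adjusted p = 0.0355 by edgeR). It read 118, 120.1, 115, 121 and 119 CPM in the euhydrated and 114, 107, 109, 108 and 115 CPM in dehydrated libraries, a small difference in which the groups did not overlap. Plxna1 no longer passed when euhydrated 1, 2, 4 or 5 or dehydrated 2, 3 or 4 was left out (adjusted p = 0.0644 to 0.0919). Plxna4 fell 1.11-fold, with means of 31.4 ± 1.08 CPM in the euhydrated and 28.3 ± 1.21 CPM in dehydrated libraries (± SD, n = 5 each; log2 fold change -0.15 ± 0.04, SE; adjusted p = 0.0369 by edgeR). Its levels were 31.1, 30.2, 31.7, 31.05 and 33.1 CPM in the euhydrated and 30.4, 28.03, 27.5, 27.6 and 27.9 CPM in dehydrated libraries, and dehydrated 1 alone lay within the euhydrated range. Plxna4 no longer passed when euhydrated 1, 3, 4 or 5 or dehydrated 2, 3, 4 or 5 was left out (adjusted p = 0.0625 to 0.0875). With no filter on low counts both calls were lost (adjusted p = 0.0559 for Plxna1 and 0.0583 for Plxna4). The other 6 plexins, among them all 3 of the B type (log2 fold changes of -0.09 to 0.05), did not pass.

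**Figure D2:**
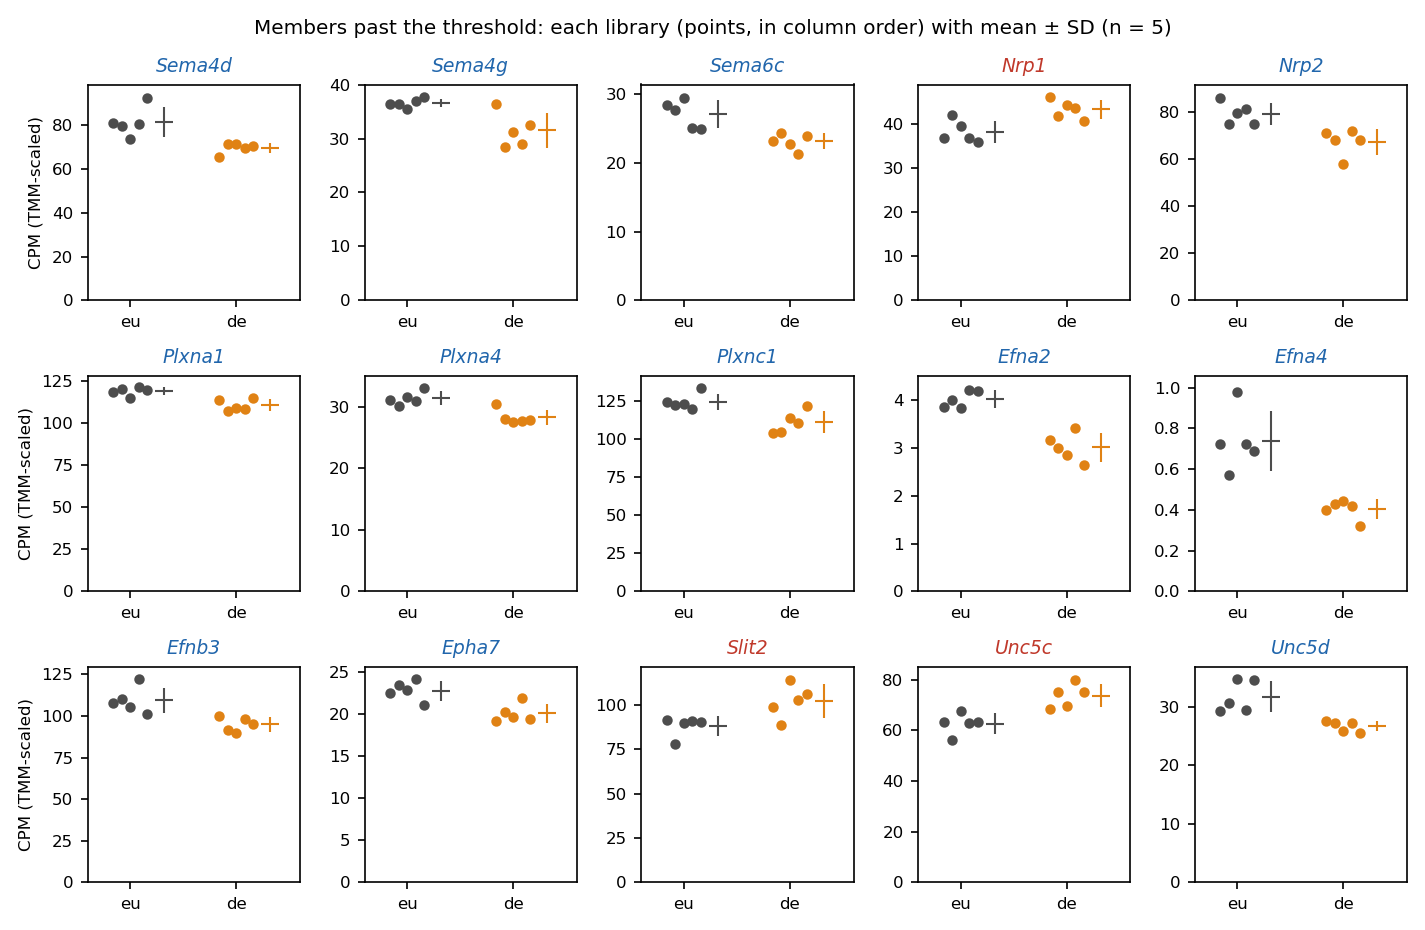
TMM-scaled CPM (y axis, from 0) of the 15 members past the threshold in the 5 euhydrated (eu, grey) and 5 dehydrated (de, orange) libraries, with the mean and SD of each group beside the points; names in red rose and names in blue fell. The groups separate fully in Sema4d, Sema6c, Nrp2, Plxna1, Efna2, Efna4, Efnb3, Unc5c and Unc5d.

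Of the 8 ephrins 3 fell, where the share over all genes tested was 4.90%. The 2 largest falls among all members were those of A-type ephrins. Efna2 fell 1.34-fold, with means of 4.03 ± 0.181 CPM in the euhydrated and 3.01 ± 0.297 CPM in dehydrated libraries (± SD, n = 5 each; log2 fold change -0.42 ± 0.11, SE; adjusted p = 0.0168 by edgeR). Its levels were 3.87, 4.01, 3.84, 4.22 and 4.203 CPM in the euhydrated and 3.17, 2.998, 2.85, 3.41 and 2.64 CPM in dehydrated libraries, with no overlap. Efna4 fell 1.82-fold, with means of 0.737 ± 0.148 CPM in the euhydrated and 0.403 ± 0.0488 CPM in dehydrated libraries (± SD, n = 5 each; log2 fold change -0.86 ± 0.24, SE; adjusted p = 0.027 by edgeR). It was close to the limit of detection, with 8 to 28 reads in a library: 0.723, 0.573, 0.976, 0.723 and 0.688 CPM in the euhydrated and 0.4005, 0.428, 0.443, 0.421 and 0.32 CPM in dehydrated libraries, again with no overlap. Efna4 no longer passed when euhydrated 1 or 3 or dehydrated 1 or 5 was left out (adjusted p = 0.051 to 0.0772). Its call was also lost with no filter on low counts (adjusted p = 0.0559), and DESeq2 set no adjusted p for it.

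Efnb3, a transmembrane ephrin of neurones and oligodendrocytes, fell 1.15-fold, with means of 109 ± 7.72 CPM in the euhydrated and 94.9 ± 4.404 CPM in dehydrated libraries (± SD, n = 5 each; log2 fold change -0.20 ± 0.05, SE; adjusted p = 0.00915 by edgeR). It stood at 108, 109.9, 106, 122 and 101 CPM in the euhydrated and 100.05, 91.6, 89.5, 98.2 and 95.1 CPM in dehydrated libraries, and the highest dehydrated library lay just under the lowest euhydrated one. Efna3, named after its values were seen, narrowly missed the threshold at -0.27 ± 0.09 (SE, log2; adjusted p = 0.0528 by edgeR). It passed without euhydrated 2 (adjusted p = 0.0352), with library totals (0.0341), with the stricter filter (0.0484) and with DESeq2 (0.0397). The other 4 ephrins had log2 fold changes from -0.02 to 0.14.

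The upstream windows of Efna2 and Efna4 are shown because these ephrins had the largest falls; both lie on the minus strand of GRCr8, at chr7:10177720-10177969 and chr2:177050714-177050963, and are printed in the direction of the gene. Capitals mark the GC box (GGGCGG on either strand), of which the Efna2 window holds 3 and the Efna4 window none; neither holds any of the other 3 motifs.
Efna2: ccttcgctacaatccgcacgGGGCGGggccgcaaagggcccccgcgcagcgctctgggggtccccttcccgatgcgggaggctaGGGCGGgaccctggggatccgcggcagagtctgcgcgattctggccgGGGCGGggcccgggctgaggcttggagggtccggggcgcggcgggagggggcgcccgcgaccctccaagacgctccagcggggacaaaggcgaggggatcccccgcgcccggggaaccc
Efna4: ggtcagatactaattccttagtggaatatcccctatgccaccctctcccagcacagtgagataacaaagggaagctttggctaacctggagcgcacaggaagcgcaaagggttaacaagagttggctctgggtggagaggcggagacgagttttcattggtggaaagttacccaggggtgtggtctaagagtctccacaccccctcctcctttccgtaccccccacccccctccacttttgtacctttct
Guanine and cytosine made up 77.2% of the Efna2 window and 53.2% of the Efna4 window. Of the 56 windows of members 31 held the GC box, 8 the half-site of the cAMP response element, 4 the E-box and 1 the AP-1 site. These are counts of letters and not of bound sites.

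Of the 13 Eph receptors 12 were tested and 1 fell, where the share over all genes tested was 4.90%. Epha7, a receptor of A-type ephrins, fell 1.14-fold, with means of 22.8 ± 1.18 CPM in the euhydrated and 20.1 ± 1.101 CPM in dehydrated libraries (± SD, n = 5 each; log2 fold change -0.18 ± 0.05, SE; adjusted p = 0.0377 by edgeR). Its levels were 22.5, 23.5, 22.8, 24.2 and 21.05 CPM in the euhydrated and 19.2, 20.3, 19.6, 21.9 and 19.4 CPM in dehydrated libraries. Dehydrated 4 lay above the lowest euhydrated library and the other 4 lay below all of them. Epha7 no longer passed when euhydrated 1, 2, 3 or 4 or dehydrated 1, 2, 3 or 5 was left out (adjusted p = 0.0614 to 0.0997). None of the 5 EphB receptors, which mainly bind B-type ephrins, passed by edgeR with TMM factors, and 1, Ephb3, had an unadjusted p under 0.05 (log2 fold changes of -0.17 to 0.02); none of the 5 passed by DESeq2 in the authors' deposited table. With library totals Ephb3, singled out after its values were seen, passed as lower (adjusted p = 0.0488; 0.0959 with TMM factors).

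Epha2 had the largest positive log2 fold change among members, 0.51 ± 0.16 (SE), and did not pass (adjusted p = 0.0524 by edgeR; singled out after its values were seen). Its euhydrated levels were close together, at 3.51, 3.29, 3.52, 3.69 and 3.48 CPM, and its dehydrated levels spread widely, at 6.63, 4.36, 6.25, 4.26 and 3.32 CPM. Dehydrated 1 and 3 were highest, and dehydrated 5 lay within the euhydrated range. It passed without dehydrated 4 or 5 (adjusted p = 0.049 and 0.0115), with no filter (0.0456) and with DESeq2 (0.03). With endothelial markers as a covariate its change was 0.31 (adjusted p = 0.191), and with erythrocyte markers it was 0.73 (0.0638).

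All 3 Slits, the ligands of Robo receptors, lay above 0 and 1 of them rose. Above 0 lay 7387 of the 15311 genes tested, and 7.79% rose. Slit2 rose 1.16-fold, with means of 87.9 ± 5.65 CPM in the euhydrated and 102 ± 9.42 CPM in dehydrated libraries (± SD, n = 5 each; log2 fold change 0.21 ± 0.06, SE; adjusted p = 0.0406 by edgeR). Its levels were 91.1, 77.8, 89.7, 90.7 and 90.1 CPM in the euhydrated and 98.4, 88.5, 114, 103 and 106 CPM in dehydrated libraries. Euhydrated 2 was the lowest by a clear gap, and dehydrated 2 lay within the euhydrated range. Slit2 no longer passed when euhydrated 1, 2, 3, 4 or 5 or dehydrated 1, 3, 4 or 5 was left out (adjusted p = 0.0571 to 0.0884). It was also lost with library totals (0.0679) and with no filter (0.0558), and its change was 0.12 with erythrocyte markers as a covariate. Slit1, named after its values were seen, had a similar log2 fold change with a wider error, 0.23 ± 0.09 (SE; adjusted p = 0.148 by edgeR, and 0.043 with DESeq2). The count of Slit2 over that of Slit3 was 3.29 to 4.016 in euhydrated and 3.648 to 4.323 in dehydrated libraries, ranges that overlapped.

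None of the 3 tested Robo receptors passed by edgeR, none had an unadjusted p under 0.05, and none passed by DESeq2 in the authors' deposited table. Their log2 fold changes were -0.09 to -0.02. Robo2, the one with the smallest p, ranged from 103 to 124 CPM in the euhydrated and from 88.2 to 120.2 CPM in dehydrated libraries, at -0.07 ± 0.08 (SE, log2; adjusted p = 0.681 by edgeR).

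Of the 5 netrin receptors tested 1 rose and 1 fell, both of the Unc5 family. The shares over all genes tested were 7.79% higher and 4.90% lower. Unc5c rose 1.18-fold, with means of 62.7 ± 4.08 CPM in the euhydrated and 73.7 ± 4.67 CPM in dehydrated libraries (± SD, n = 5 each; log2 fold change 0.23 ± 0.05, SE; adjusted p = 0.00724 by edgeR). It read 63.2, 56.2, 67.5, 63.04 and 63.4 CPM in the euhydrated and 68.5, 75.3, 69.7, 79.95 and 75.2 CPM in dehydrated libraries, with no overlap. Unc5d fell 1.19-fold, with means of 31.7 ± 2.71 CPM in the euhydrated and 26.7 ± 0.889 CPM in dehydrated libraries (± SD, n = 5 each; log2 fold change -0.25 ± 0.06, SE; adjusted p = 0.00874 by edgeR). It read 29.2, 30.7, 34.7, 29.5 and 34.6 CPM in the euhydrated and 27.6, 27.2, 25.9, 27.3 and 25.6 CPM in dehydrated libraries, also with no overlap. Both calls held in all 10 fits that left out 1 library.

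The count of Unc5c over that of Unc5d was 2.16, 1.83, 1.95, 2.14 and 1.83 in euhydrated libraries 1 to 5 and 2.48, 2.77, 2.69, 2.93 and 2.94 in dehydrated libraries 1 to 5. The mean ratio went from 1.98 ± 0.16 to 2.76 ± 0.19 (SD, n = 5), with no overlap. That separation was fixed by the levels above, since both genes separated fully and in opposite directions. It therefore adds nothing to the calls of Unc5c and Unc5d. This pair too was chosen for its opposite changes and was not tested. Unc5a and Unc5b, the other members of the family, did not pass, at -0.11 ± 0.06 and -0.13 ± 0.07 on the log2 scale (SE; adjusted p = 0.238 and 0.235 by edgeR). Dcc, the netrin receptor best known for attraction, had a log2 fold change of -0.03 ± 0.05 (SE; adjusted p = 0.804 by edgeR), from 27.3 to 28.98 CPM in the euhydrated and 25.02 to 30.1 CPM in dehydrated libraries, and its sign turned in 2 of the alternatives.

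**Figure D3:**
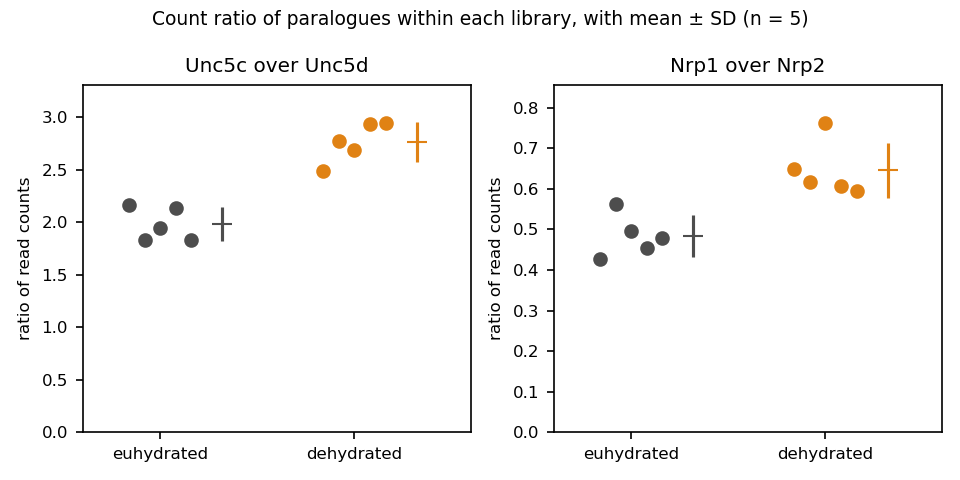
Ratio of read counts (y axis, from 0) of Unc5c over Unc5d and of Nrp1 over Nrp2 within each library, with the mean and SD of each group (n = 5). All dehydrated libraries lie above all euhydrated ones in both panels, from 2.48 upward against at most 2.16 for Unc5c over Unc5d. For Unc5c over Unc5d this was fixed by the levels of each gene, which separate fully in opposite directions.

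None of the 4 netrins passed by edgeR, and 1 had an unadjusted p under 0.05; none passed by DESeq2 in the authors' deposited table. That one was Ntn4, a netrin of basement membranes, at 22.7, 20.3, 22.7, 21.4 and 20.3 CPM in the euhydrated and 20.4, 18.6, 16.9, 21.96 and 16.96 CPM in dehydrated libraries. Its log2 fold change was -0.18 ± 0.07 (SE; adjusted p = 0.126 by edgeR), and it passed without dehydrated 4 (0.0358), the highest dehydrated library. Unc50, which only shares the start of its symbol with the Unc5 receptors, had a log2 fold change of 0.12 ± 0.05 (SE; adjusted p = 0.155 by edgeR).

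The rest of the pathway was taken from 2 lists of genes outside the rule. Of 30 other guidance cues, receptors and co-receptors 4 rose and 2 fell, with a median log2 fold change of -0.06. The 6 genes called are 20% of those tested, against 12.7% of all genes (7.79% higher and 4.90% lower). With library totals 2 rose and 3 fell, where the shares of all genes were 5.90% and 7.66%. Without euhydrated 1, 2, 3 or 4 or dehydrated 4 or 5 only 2 were higher. Rtn4rl1, a Nogo receptor homologue known as a receptor of chondroitin sulfate proteoglycans, rose 1.49-fold (adjusted p = 0.000142 by edgeR), and L1cam, an adhesion molecule and co-receptor for Sema3a, rose 1.12-fold (0.0017). Cntn2 and Lsamp, cell adhesion molecules of axons, rose 1.12-fold and 1.11-fold (0.0461 and 0.0309). Cntn2 no longer passed when euhydrated 1, 2, 3, 4 or 5 or dehydrated 2, 3, 4 or 5 was left out (adjusted p = 0.0607 to 0.104). Lsamp no longer passed when euhydrated 1, 2, 3 or 4 or dehydrated 4 or 5 was left out (adjusted p = 0.0511 to 0.0757). Lrrc4b and Lrrc4c, postsynaptic adhesion proteins, of which Lrrc4c is the receptor of netrin-G1, fell 1.09-fold and 1.11-fold (0.0102 and 0.0159). With erythrocyte markers as a covariate Rtn4rl1 alone of these 6 passed, and the changes of L1cam and Cntn2 were 0.10 and 0.10 on the log2 scale (adjusted p = 0.129 and 0.46), against 0.16 and 0.16 without it. Cntn2 also did not pass with DESeq2 size factors, library totals or limma-voom (0.0506 to 0.0805), and Lsamp not with library totals or the endothelial covariate (0.0618 and 0.0821).

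Of 59 tested intracellular effectors 4 rose and 5 fell, with a median log2 fold change of 0.0056. The 9 genes called are 15.3% of those tested, near the 12.7% of all genes (7.79% higher and 4.90% lower). With library totals 3 rose and 10 fell, where the shares of all genes were 5.90% and 7.66%. Without euhydrated 2 only 2 were lower, and without euhydrated 1 or 4 or dehydrated 3 or 5 only 3. Vasp, which promotes actin filament growth, rose 1.26-fold (adjusted p = 0.002 by edgeR). Pak3, a kinase downstream of Rac and Cdc42, rose 1.16-fold (0.00563), Sdcbp, a scaffold that binds ephrin-B tails, 1.12-fold (0.00237), and Srgap1, a Slit-Robo GTPase-activating protein, 1.12-fold (0.0401). Rnd1, a small GTPase that binds plexins, fell 1.29-fold (0.00173) and Rnd2, its relative, 1.08-fold (0.0252). Pak1, of the same kinase family as Pak3, fell 1.09-fold (0.00792), and Dpysl2, a collapsin response mediator of semaphorin signals, 1.08-fold (0.047). Srgap1 no longer passed when euhydrated 1, 2 or 4 or dehydrated 1, 2, 3 or 4 was left out (adjusted p = 0.0525 to 0.0932). Rnd2 no longer passed when euhydrated 2 or 5 or dehydrated 2, 3 or 5 was left out (adjusted p = 0.0506 to 0.0657). Dpysl2 no longer passed when euhydrated 1, 2, 3, 4 or 5 or dehydrated 3, 4 or 5 was left out (adjusted p = 0.0573 to 0.115). Dpysl2 also did not pass with no filter, or with the oligodendrocyte or endothelial covariate (0.0515 to 0.0608), and its change was -0.04 with the erythrocyte covariate (0.646), against -0.10 without it. Srgap1 also did not pass with library totals, with no filter or with any of the 3 covariates (0.0522 to 0.122), nor Pak3, Sdcbp and Rnd2 with the erythrocyte covariate (0.051, 0.0739 and 0.298).

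The authors' deposited table has 5 members higher and 13 lower at an adjusted p under 0.05, of 64 members with an adjusted p. A rerun of DESeq2 also had 5 higher and 13 lower, of 70 members. In the rerun 5.97% of 22159 genes passed as higher and 4.17% as lower, with genes that lack an adjusted p counted as not passing. Of the 15 members called by edgeR 14 passed there, and Efna4 has no adjusted p in it. The authors' deposited table also calls Epha2 (adjusted p = 0.03) and Slit1 (0.043) higher and Efna3 (0.0397) and Sema6a (0.0492) lower. The edgeR fit put Sema6a, another ligand of A-type plexins, at -0.12 ± 0.04 (SE, log2; adjusted p = 0.0655, and 0.0294 without dehydrated 4), and it passed with library totals (0.0238).

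The strand setting of the counting is not given in the sources at hand, and overlap of exons, which could mix reads, was not examined. Only whole spans, introns included, were compared with those of other RefSeq genes, and several members share theirs. Among the 15 members past the threshold this holds for Sema4d, Sema6c, Nrp1, Nrp2, Plxna4, Plxnc1, Efna4, Epha7 and Unc5c, each with at least 1 long non-coding RNA in its span. The Slit2 span holds Mir218-1 and Mir3565, and that of Unc5d a tRNA gene and a pseudogene. No other gene lies in the spans of Sema4g, Plxna1, Efna2 and Efnb3.

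Markers of other cell types were followed because glia, vessels and blood also make several members. Oligodendrocyte markers summed to 9892 to 14383 CPM in the euhydrated and 9469 to 12104 CPM in dehydrated libraries, and 2 of 10, Cnp and Opalin, fell. With their mean level as a covariate 9 of the 15 members passed, while Nrp1, Plxna1, Plxna4, Plxnc1, Epha7 and Slit2 did not. Of all genes tested 11.4% passed with this covariate, against 12.7% without it. Endothelial markers summed to 419.95 to 439 and 407 to 463 CPM, and 1 of 9, Kdr, rose. With the endothelial covariate 8 of the 15 passed, and the others were Sema6c, Nrp1, Plxna1, Plxnc1, Efna4, Epha7 and Slit2. The share of all genes tested that passed with it was 9.48%. Astrocyte (8 tested), microglial (8), mural (8) and meningeal (7) markers had no member past the threshold by edgeR, with 0, 4, 0 and 1 at an unadjusted p under 0.05. Of 5 markers of oligodendrocyte precursors 1, Cspg4, rose 1.17-fold (adjusted p = 0.0198 by edgeR), and the list summed to 241 to 263 CPM in euhydrated against 243 to 280.5 CPM in dehydrated libraries. Of 6 markers of ependyma and choroid plexus 1, Clic6, fell 1.51-fold (0.00524) with no overlap between the groups, and the list summed to 14.5 to 33.2 against 12.6 to 23.9 CPM. All 5 tested markers of GABAergic neurones lay below 0 (median log2 fold change -0.14), none passed by edgeR and 1 had an unadjusted p under 0.05. Npy, also of that list, was at 0 in every library, as was Pak2 of the effector list. Whether such a 0 reflects the transcript or the way reads were counted was not tested. The list of GABAergic markers summed to 968 to 1082 against 843 to 1079.9 CPM. The part of these 7 lists in the results was not tested.

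Erythrocyte markers were lower in all 5 genes, of which 1 passed, and summed to 978 to 1954 CPM in the euhydrated and 571 to 1388 CPM in dehydrated libraries, ranges that overlapped. Their mean log2 CPM was 5.98 in the euhydrated and 5.08 in dehydrated libraries, so the covariate itself differed between the groups. With it in the fit 1 of the 15 members passed: Plxnc1, at -0.25 on the log2 scale (edgeR adjusted p = 0.019). For the 15 members the change with this covariate was a median of 0.947 times that without it, smaller in 10 and larger in 5. The SE was larger in all 15, by a median of 1.42 times. Of all genes tested 4.45% passed with this covariate, of the 30 other cues and receptors 1 (higher), and of the effectors 5 (2 higher, 3 lower).

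**Figure D4:**
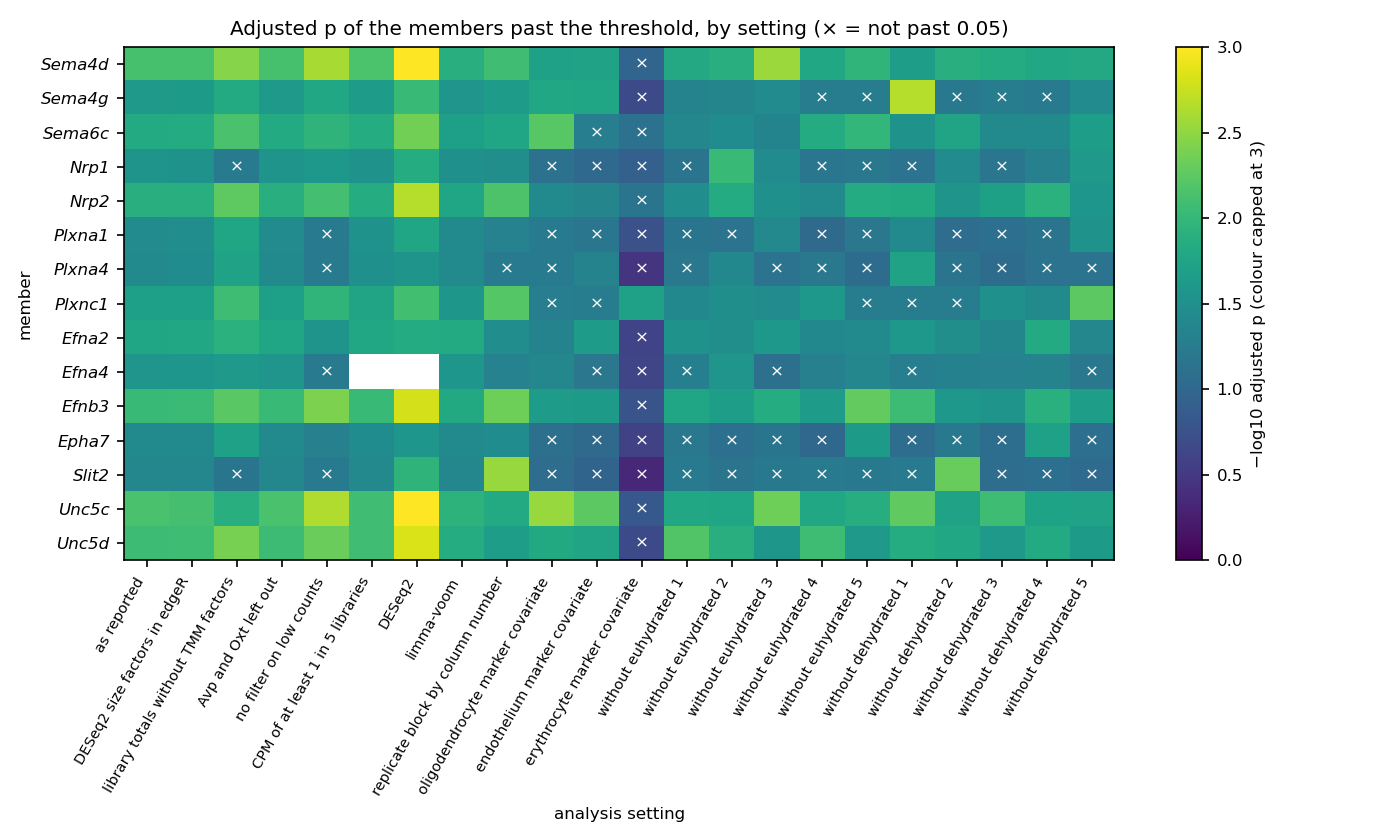
Adjusted p (colour, as -log10, capped at 3) of the 15 members past the threshold (rows) under each analysis setting (columns); a cross marks a value not past 0.05 and white marks no value. The column of the erythrocyte covariate has crosses for 14 members, while Sema4d, Nrp2, Efna2, Efnb3, Unc5c and Unc5d have a cross only there.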

How the data were processed

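RNA from the SON of 5 euhydrated and 5 dehydrated samples was analysed from the raw read counts per gene that the authors deposited. Per the submitters' processing notes the tools were CASAVA, FastQC, STAR, featureCounts and DESeq2 1.28.1; the genome build, annotation and strand setting are not named in the sources used here. The authors' deposited table also holds normalised counts (a signal equal to count over size factor in 100% of values, within 1% or 0.1), the log2 fold change, its standard error (listed as a score) and the p-value with its adjusted form; these were used only where named.

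Counts were tested with edgeR 4.0.16 (R 4.3.3): filterByExpr kept 15311 of 32402 genes, TMM factors scaled the libraries, robust quasi-likelihood fits with no covariate compared the groups, and the Benjamini-Hochberg adjustment covered every gene tested (threshold 0.05). CPM are counts relative to the TMM-scaled library size, and SE is the log2 fold change over the root of F. Depth varied little between libraries (24268398 to 28491926 counts), and low genes such as Efna4 carry the largest errors. Replicates of a group differed by more than counting error (4.86 to 12.1 chi-square per degree of freedom, for genes reaching 20 counts), and none was counted as a repeat. The fit was tested on simulated data.

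The members, gene lists and tests were chosen with earlier results of these data known. Genes are named where past the threshold or where groups did not overlap, with the lowest p in a family without such a gene; of each pathway list, up to 5 past the threshold in each direction, of which 1 effector that fell is not reported here. Epha2, Efna3, Slit1, Sema6a, Sema7a, Dcc, Ephb3, Unc50, Unc5a, Unc5b and the genes that failed the filter were named after their values were seen. Of 61 effectors named 60 matched a symbol, and 407 identifiers had none. Some euhydrated column numbers could not be tied to 1 label, so euhydrated 3 to 5 are numbered by column within the group. Promoter windows come from RefSeq (GRCr8). Alternatives covered scaling, filters, DESeq2 1.42.0, limma-voom (limma 3.58.1), marker covariates, a replicate block and leaving out each library.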

Additional observations from a re-analysis of the deposited data

Results flagged for a closer look

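In 8 of 134 combinations of a tested member and a group, 1 library stood apart from the other 4, with a gap to its nearest neighbour above 0.71 of the group's range; chance gives about 1 in 20. Among members past the threshold, Nrp2 read 57.99 CPM in dehydrated 3, against 67.82 CPM in the next library, on the side of its fall. Plxna4 read 30.44 CPM in dehydrated 1, against 28.03 CPM in the next, towards the euhydrated level. Slit2 read 77.83 CPM in euhydrated 2, against 89.66 CPM in the next, on the side that widens its rise. The other 5 were members that did not pass. Epha8 read 3.54 CPM in dehydrated 4, with the next at 3.96 CPM. Ephb6 read 50.5 CPM in euhydrated 5, with the next at 46.27 CPM. Plxna2 read 86.7 CPM in dehydrated 4, with the next at 81.84 CPM. Plxnd1 read 41.66 CPM in dehydrated 2, with the next at 47.24 CPM. Sema3f read 12.6 CPM in dehydrated 4, with the next at 13.98 CPM. Dehydrated 4 was the library in 3 of the 8.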

How the results depend on the processing

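The counts of members past the threshold, 3 higher and 12 lower, were 3 and 12 with DESeq2 size factors, with vasopressin and oxytocin left out, with the stricter filter and with limma-voom. Members higher numbered 1 with library totals, 5 with DESeq2, 1 with the endothelial covariate, 0 with the erythrocyte covariate and 1 at a threshold of 0.01, and 1 to 3 when 1 library was left out. Members lower numbered 7, 1 and 3 under the endothelial covariate, the erythrocyte covariate and the 0.01 threshold, and 7 to 11 when 1 library was left out. Of all genes tested 9.48%, 4.45% and 5.82% passed in those settings, and 9.71% to 11.4% when 1 library was left out, against 12.7% in the main fit. Of the other cues and receptors, 4 higher became 2 with library totals, 1 with the erythrocyte covariate, 2 at 0.01 and 2 to 4 without 1 library; 2 lower became 0 with the erythrocyte covariate, 0 at 0.01 and 2 to 3 without 1 library. Of the effectors, 4 higher became 2 with the erythrocyte covariate and 3 to 4 without 1 library. The 5 effectors lower became 10 with library totals, 3 with each of the oligodendrocyte, endothelial and erythrocyte covariates, 2 at 0.01 and 2 to 5 without 1 library. The cause was not tested, except that fits without a library hold fewer samples. The sign turned in 1 named gene: Dcc stood at 0.0153 on the log2 scale with the endothelial covariate and, with 1 library left out, at -0.058 to 0.0079, the latter without dehydrated 3. Of the 15 called members 7 kept the call in all 10 fits without 1 library: Efna2, Efnb3, Nrp2, Sema4d, Sema6c, Unc5c and Unc5d. Depth limits Efna4, at 8 to 28 reads a library.

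With the column number as a replicate block, 4 members passed as higher and 11 as lower. Plxna4 no longer passed (adjusted p = 0.0600), Slit1 did (0.0203), and of the pathway lists Srgap1 (0.0826) and Dpysl2 (0.0590) no longer passed. Same-numbered libraries deviated from their group means with correlations of -0.068, 0.141, 0.016, 0.038 and -0.016 across genes. Only number 2 correlated best with its own number. Some euhydrated column numbers could not be tied to a sample label, so these correlations cannot decide whether same-numbered libraries were handled together.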
